A study of Mus musculus with 12 samples.

Results

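The transcripts described here encode the coat of the mouse egg and the enzyme that alters it at fertilization: Zp1, Zp2, Zp3, Oosp1 and Astl. These 5 genes were taken by symbol from the 56691 genes of the count table. No measured value entered that rule, but the genes were chosen with earlier results of these data known. All 5 passed the filter on low counts in every comparison. RNA was sequenced from pools of oocytes of wild-type (WT) mice and of total knockout (KO, Alkbh5-/-) mice, in which exon 1 of the m6A demethylase gene Alkbh5 had been ablated with CRISPR-Cas9. Oocytes came from 3-week-old females primed with PMSG, were collected at the germinal vesicle (GV) stage and cultured in vitro, and were sampled by time in culture as GV, germinal vesicle breakdown (GVBD) and metaphase II (MII), with 2 libraries in each of the 6 groups. The zona itself was dissolved in acidic medium before lysis. The knockout was in the whole animal, so the follicle around the oocyte lacked the gene as well. By the study's own account most knockout oocytes stayed at the GV stage and few extruded a polar body, and its text did not say whether the knockout oocytes sequenced as GVBD and MII had been chosen by their stage. Genotype and a delayed stage therefore cannot be told apart in those libraries.

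The zona pellucida is a filamentous shell that the growing oocyte secretes. In the mouse it is built from the glycoproteins ZP1, ZP2 and ZP3, and ZP1 links the filaments made of ZP2 and ZP3. After fertilization the cortical granules release ovastacin, the protease encoded by Astl, which cleaves ZP2 and so ends sperm binding. Full-grown oocytes are transcriptionally silent, and during meiotic maturation many stored transcripts are removed while others are kept or gain a longer poly(A) tail.

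The annotation set the zona transcripts apart by their very short 3′ untranslated regions (UTRs), whose ends are shown because Zp2 and Zp3 RNA was lower at MII in WT. In GRCm38, Zp1 lies at chr19:10914287-10920632 on the minus strand with 12 exons, Zp2 at chr7:120126772-120145291 on the minus strand with 18 exons, and Zp3 at chr5:135980099-135988624 on the plus strand with 8 exons. Oosp1 lies at chr19:11667460-11691150 on the minus strand with 5 exons, in a row with Oosp2 and Oosp3, and Astl at chr2:127338639-127357651 on the plus strand with 9 exons. No other annotated gene overlapped any of the 5. In GENCODE M21 the 3′ UTR was 34 bases long in Zp1, 49 in Zp2 and 13 in Zp3, against a median of 977 bases over 10585 expressed coding genes. Of those genes, 0.841% had a shorter 3′ UTR than Zp1, 1.59% a shorter one than Zp2 and 0.132% a shorter one than Zp3. Oosp1 had 230 bases and Astl 877. The stretch of each transcript around its last AATAAA hexamer, the signal for cleavage and polyadenylation, is given 5′ to 3′ with the hexamer in capitals.
Zp1: ttaaatggactcAATAAAccattgtttgaa
Zp2: attggacttgcaAATAAAgagactgcagtt
Zp3: tatcccttccgcAATAAAagaagaaactca
Oosp1: atctgattaaagAATAAAaatttcccatta
Astl: ggaaaaggtagaAATAAAgttgggtgtttg
In Zp3 the hexamer overlapped the stop codon, an arrangement found in 36 of the 10585 genes (0.340%), and it ended 12 bases before the end of the transcript. In the other 4 it lay within the 3′ UTR, 20 bases from the end in Zp1, 32 in Zp2, 87 in Oosp1 and 18 in Astl. The motifs TTTTAT and TTTTAAT, forms of the cytoplasmic polyadenylation element, were searched on the transcript strand in the last 100 bases of the 3′ UTR, or in all of a shorter one. None of the 5 genes held either. TTTTAT was present in 15.2% and TTTTAAT in 5.60% of the expressed genes. Zp1, Zp2 and Zp3 offered only 34, 49 and 13 bases to search, so these shares are not a like comparison for them. A match or its absence describes only these letters.

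The promoter of Zp3 is printed because FIGLA, the oocyte factor that drives the zona genes, binds E-boxes. The RNA of Figla itself is described further on. The promoter set used held no window for Zp1 or Zp2, so their promoters were not examined. The sequence is from RefSeq (GRCm38.p6, chr5:135979855-135980154, plus strand), runs from 250 bases before to 50 bases after the annotated start, and has the E-boxes (CANNTG, which reads alike on both strands) in capitals.
Zp3: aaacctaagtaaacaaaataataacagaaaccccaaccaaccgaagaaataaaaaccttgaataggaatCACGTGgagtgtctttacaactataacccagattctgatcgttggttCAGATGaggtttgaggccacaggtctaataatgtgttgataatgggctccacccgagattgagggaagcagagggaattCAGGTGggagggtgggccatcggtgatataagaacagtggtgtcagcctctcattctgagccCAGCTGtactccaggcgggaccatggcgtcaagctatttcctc
This window held 4 E-boxes, of which the CAGGTG began 55 bases before the start. The corresponding window of Oosp1 (chr19:11691002-11691301, minus strand) held 5. Astl had 2 annotated starts, and the window at the downstream one (chr2:127341386-127341685) held 3 copies of CAGGTG, while the upstream window held none. CANNTG occurred in 72.3% of all 32851 RefSeq promoter windows of this length, and CAGGTG or its reverse complement CACCTG in 20.2%. The presence of a match therefore singles out none of these genes. How many windows held several copies was not computed.

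The libraries held 28557742 to 40247810 counts each. Because whole pools lose RNA during maturation, levels are given as ERCC-scaled counts, which are counts divided by the library's total of external spike-in (ERCC) counts relative to the mean of all 12 libraries. Endogenous counts per ERCC count were 98.9 and 105 at GV and 47.0 and 73.3 at MII in WT, and 111 and 128 at GV and 54.7 and 87.9 at MII in KO. A lower value can come from fewer oocytes or from less RNA per oocyte, and these cannot be told apart in pools. The study's methods and a legend gave different numbers of oocytes per tube. The ablation of Alkbh5 was visible in every knockout library, with 50.9 to 260.4 ERCC-scaled counts against 3020 to 13653 in WT, and Alkbh5 was called lower at GV, GVBD and MII. All 6 oocyte markers were detected in each library, at a sum of 16852 to 25724 CPM (counts per 1000000 endogenous counts). The 12 granulosa and cumulus markers summed to 30.6 to 47.4 CPM in WT and 39.2 to 77.1 in KO, with 4 to 9 of them at 10 counts or more in a library, and Amh, Foxl2 and Tnfaip6 had at most 12 counts in any library. Cyp19a1 took the largest part of that sum, with 577 to 2225 counts in a library. Fshr was called higher in KO at GVBD by edgeR (log2 fold change 3.38, SE 0.69, adjusted p = 0.00897), with 17 and 32 counts in WT and 221 and 157 in KO, and Inha, Inhba and Star were called lower at MII than at GV in WT. Whether these marker differences had a part in the results below was not tested. The study describes the 2 libraries of a group as biologically independent samples, while the labels do not name separate animals or collections.

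Per kilobase of transcript, Oosp1 stood highest of the 5 in all 12 libraries and ranked from 3rd to 40th among the genes with a known length. Zp2 ranked between 126 and 485 and Zp3 between 160 and 502. Zp1 and Astl were the least abundant, at ranks of 478 to 1410 and 421 to 1200. In WT GV oocytes the mean ERCC-scaled counts per kilobase were 114140 ± 18798 for Oosp1, 31731 ± 1963 for Zp2, 27487 ± 2743 for Zp3, 5348 ± 755 for Zp1 and 3531 ± 70.2 for Astl (SD, n = 2 each). All were thus well-measured transcripts, with at least 3976 raw counts in every library.

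The first question was how egg coat transcripts behaved while WT oocytes matured. Zp2, which encodes the filament subunit that sperm bind, had ERCC-scaled counts of 67393 and 73557 in the WT GV libraries, 83878 and 63856 in the GVBD libraries, and 15924 and 7804 in the MII libraries. Both MII libraries lay far below all 4 earlier ones, and the mean at MII was 16.8% of that at GV. Zp3, the partner subunit, stood at 38931 and 33800 in GV oocytes, at 23764 and 20538 after breakdown and at 8062 and 4469 at the end of the culture. Here the 3 stages did not overlap, and 17.2% of the GV mean was present at MII. Zp1, the cross-linker, started at 11547 and 9450, went to 5332 and 5620 by GVBD and to 5472 and 2669 by MII. Its GVBD and MII ranges overlapped, and both lay below GV.

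Oosp1, which encodes a small protein secreted by oocytes, behaved in the opposite way in WT. Its ERCC-scaled counts were 123864 and 98024 in GV oocytes, 120721 and 128760 after breakdown, and 269815 and 180752 in MII oocytes. Both MII libraries exceeded all earlier WT libraries, at 203% of the GV mean. Astl had GV values of 8276 and 8512, GVBD values of 11358 and 7697 and MII values of 9923 and 6369, with overlapping ranges throughout. The ovastacin transcript was therefore at a similar level at MII (97.0% of the GV mean) in pools whose endogenous RNA per spike-in had dropped.

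**Figure D1:**
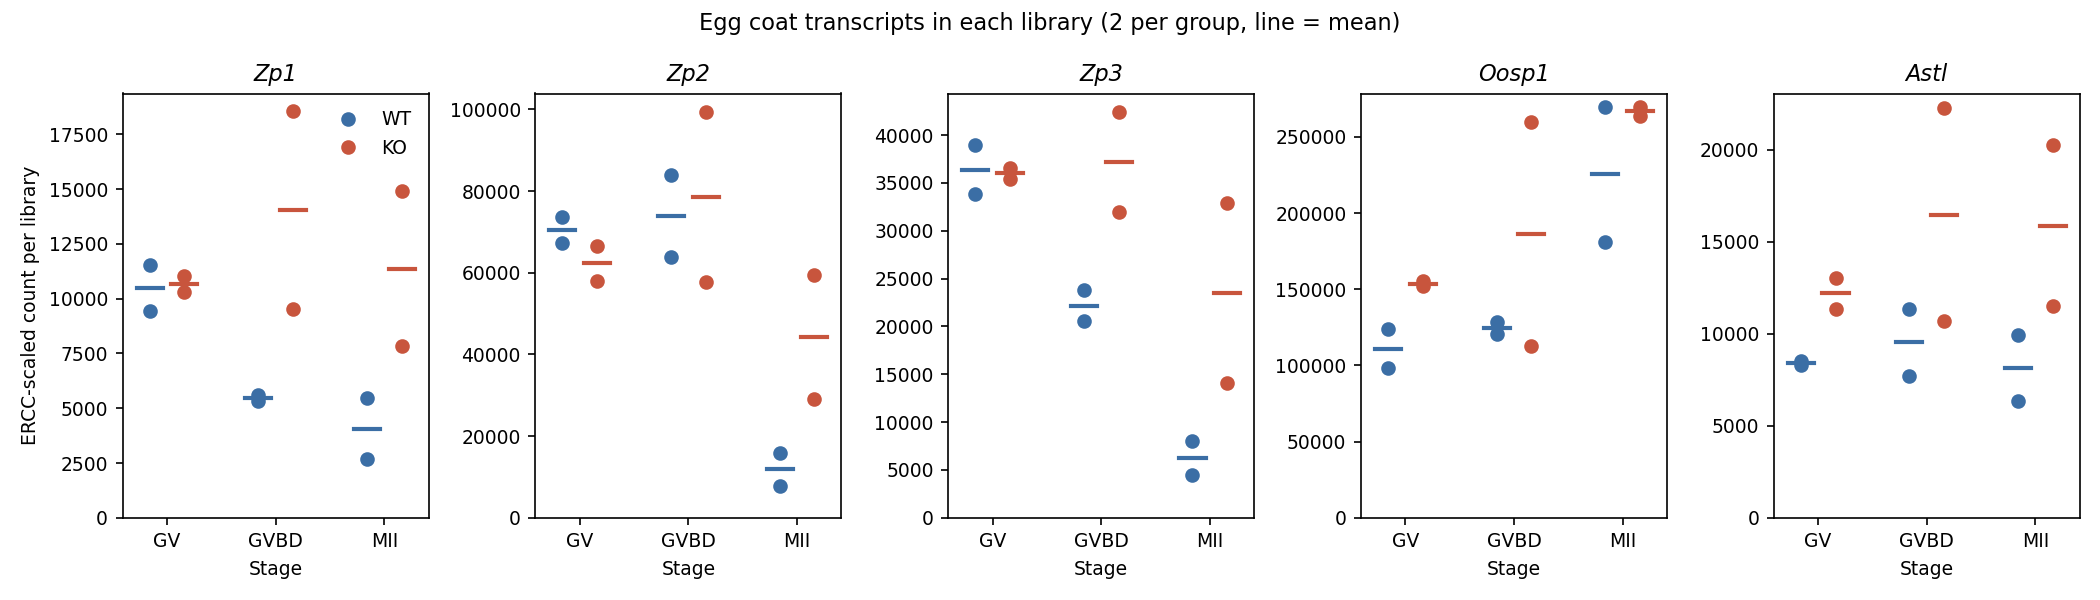
ERCC-scaled counts (linear axis from 0) of Zp1, Zp2, Zp3, Oosp1 and Astl by stage, with a point for each library (blue WT, red KO, 2 per group) and a line at the group mean. The WT points of Zp2 and Zp3 drop at MII to 16.8% and 17.2% of their GV means. In proportion, the MII libraries are far apart in both genotypes. For Zp2 they are 15924 and 7804 in WT, and 59404 and 29092 in KO. For Zp3 they are 8062 and 4469 in WT, and 32881 and 14089 in KO. Oosp1 is highest at MII in both genotypes.

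In edgeR's quasi-likelihood test of MII against GV in WT, where a call required a Benjamini-Hochberg adjusted p under 0.05 and an absolute log2 fold change of at least 1, 4 of the 5 genes were called. All 3 zona genes were lower, against a background of 30.5% of all 18816 genes tested called lower. Zp2 changed by −2.57 (SE 0.45, adjusted p = 2.42e-07), Zp3 by −2.54 (SE 0.47, adjusted p = 9.3e-07) and Zp1 by −1.37 (SE 0.47, adjusted p = 0.0158). Oosp1 was higher by 1.02 (SE 0.40, adjusted p = 0.0345), a direction in which 0.393% of genes were called. Astl was at −0.04 (SE 0.46, adjusted p = 0.964). The loss in WT was general, with a median log2 change of −1.06 over all genes tested, and members are read against it. Zp2 and Zp3 lay 1.51 and 1.47 log2 units below that median, and 20.2% and 20.6% of genes fell further. Zp1 lay only 0.30 below it, whereas Oosp1 exceeded the change of 98.3% and Astl that of 80.9% of all genes.

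Scaling by the endogenous RNA instead of the spike-ins (TMM, trimmed mean of M values) moved the median of all genes to −0.14. On that scale Zp2 was at −1.69 (adjusted p = 0.0038), Zp3 at −1.65 (adjusted p = 0.00471) and Oosp1 at 1.94 (adjusted p = 0.00434). Zp1 was no longer called, at −0.50 (adjusted p = 0.168), and Astl turned to 0.88 (adjusted p = 0.0156), below the fold threshold. With the spread estimated over all 12 libraries, Zp1 (adjusted p = 0.0587) and Oosp1 (adjusted p = 0.0862) were not called and Zp2 and Zp3 were. Leaving out 1 WT library at a time left between 1 and 3 calls, with Zp2 called each time. Zp1 was lost without WT MII replicate 2 or without either GV library, Oosp1 without either GV library, without WT MII replicate 1 or with no filter on low counts (adjusted p = 0.138), and Zp3 without WT GV replicate 1 (adjusted p = 0.0634).

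By mean level, Zp1, Zp2 and Zp3 did not follow the same course within WT maturation, but a difference in timing between them was not tested. Only the later step was called. From GV to GVBD edgeR called 0 of the 5, with 0.0102% of genes called lower and 0.0409% higher. Zp1 was at −0.94 (SE 0.34, adjusted p = 0.61) and was the only member with an unadjusted p under 0.05, Zp3 was at −0.72 (SE 0.32) and Zp2 at 0.07 (SE 0.32). DESeq2 also called 0 of the 5. From GVBD to MII, 2 of the 5 were called lower, beside 27.1% of all genes, and 0 higher, beside 0.682%. Zp2 changed by −2.64 (SE 0.61, adjusted p = 0.000234) and Zp3 by −1.82 (SE 0.63, adjusted p = 0.0171), while the median of all genes was −1.11. Zp1 was at −0.43 and Astl at −0.23, both above that median, and Oosp1 at 0.85. Under TMM scaling Zp2 and Oosp1 (1.75, adjusted p = 0.00904) were called and Zp3, at −0.93, was below the fold threshold. Without WT GVBD replicate 1 neither Zp2 (adjusted p = 0.0759) nor Zp3 (adjusted p = 0.328) was called.

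The next question was whether the same course was seen without Alkbh5. In KO, the ERCC-scaled counts of Zp2 were 66539 and 58065 in GV oocytes, 99294 and 57706 in those sampled as GVBD, and 59404 and 29092 in those sampled as MII. Zp3 started at 35454 and 36601, stood at 42454 and 31963 by GVBD and ended at 32881 and 14089. The MII means were 71.0% of the GV mean for Zp2 and 65.2% for Zp3. The KO MII libraries were far apart, as were the WT MII libraries in proportion. For Zp3 both KO MII libraries lay below both KO GV libraries. Zp1 had GV values of 10305 and 11021, GVBD values of 18563 and 9525 and MII values of 14913 and 7831, with MII libraries on either side of GV.

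Oosp1 in KO stood at 155189 and 151933 in GV oocytes, 259707 and 112870 in the GVBD samples and 263860 and 269546 in the MII samples. As in WT, both MII libraries lay above both GV libraries. Astl had GV values of 11352 and 13023, GVBD values of 22250 and 10683 and MII values of 20259 and 11477. At GVBD the first KO library was the higher one for all 5 genes, which left that group's mean with a wide spread.

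In edgeR's test of MII against GV in KO, 0 of the 5 genes were called, beside 3.28% of all 18777 genes called lower and 0.00533% higher, and 0 had an unadjusted p under 0.05. DESeq2 called 0 as well. The log2 fold changes were 0.09 for Zp1 (SE 0.55), −0.49 for Zp2 (SE 0.50), −0.62 for Zp3 (SE 0.54), 0.80 for Oosp1 (SE 0.38) and 0.38 for Astl (SE 0.53). The median of all genes, −1.17, was as low as in WT, so all 5 changes lay above it, those of Zp2 and Zp3 by 0.68 and 0.55. Under TMM scaling the median of all genes was −0.14 and Zp2 and Zp3 were at 0.56 and 0.39, 0.70 and 0.53 above it. The ERCC-scaled result depended on KO MII replicate 1: without it Zp2 was at −1.10 and Zp3 at −1.35, with 1 MII library against 2 GV libraries. In CPM, Zp2 stood at 1673 and 1317 in KO MII against 1290 and 1292 in KO GV. For Zp3 the CPM values were 926 and 638 in KO MII against 687 and 814 in KO GV. From GV to GVBD in KO edgeR called 0 of the 5, beside 0.184% of genes lower and 0.0367% higher, and from GVBD to MII again 0, beside 7.12% lower and 0.0779% higher. In neither step did a member have an unadjusted p under 0.05, and DESeq2 called none.

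**Figure D2:**
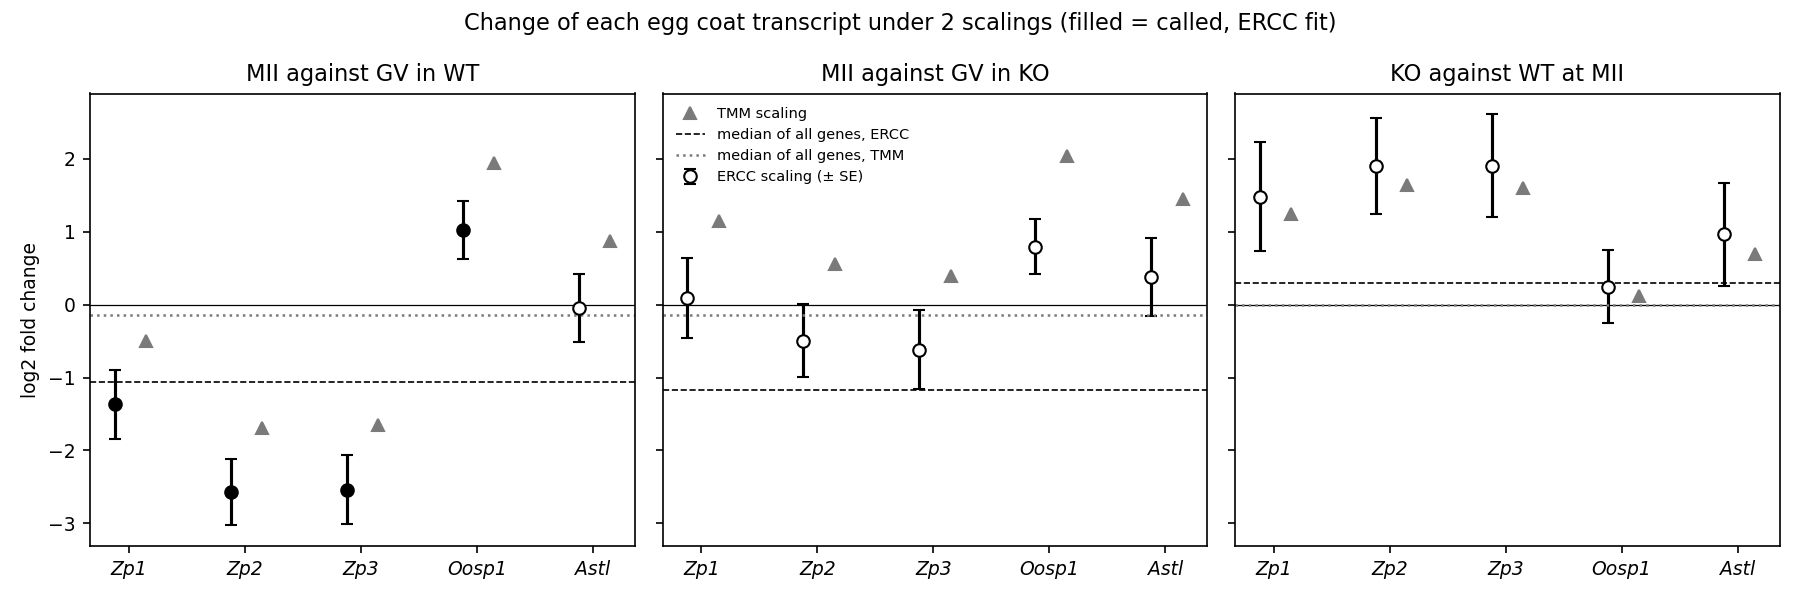
log2 fold changes of the 5 transcripts for MII against GV in WT, MII against GV in KO, and KO against WT at MII. Circles are the ERCC-scaled edgeR values with their standard errors (filled where called), triangles the TMM-scaled values, and the horizontal lines the medians of all genes under each scaling. In WT, Zp2 (−2.57) and Zp3 (−2.54) lie below the median line (−1.06) under both scalings, and in KO they lie above it.

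The genotypes were then compared at each stage. At GV edgeR called 0 of the 5, beside 0.0977% of genes called in either direction. Zp1 was at 0.02, Zp2 at −0.18 and Zp3 at −0.01 (SE 0.16 to 0.18), differences of about the size of their standard errors or less, although the 2 KO values of Zp2 lay below both WT values. Oosp1 (0.47, SE 0.17) and Astl (0.54, SE 0.16) had unadjusted p-values of 0.0307 and 0.0164, with adjusted p-values of 0.234 and 0.198, and the KO libraries lay above the WT libraries for both. The median of all genes at GV was 0.36, and Oosp1 and Astl exceeded the difference of only 58.8% and 63.6% of genes. The share of all genes whose libraries were separate at GV was not computed. DESeq2 called 0.

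At GVBD again 0 were called by edgeR, beside 2.54% of genes, and 0 by DESeq2. Zp1, at 1.36 (SE 0.52, unadjusted p = 0.0169, adjusted p = 0.198), was the only one with an unadjusted p under 0.05. Zp3 was at 0.75 (SE 0.49), Astl at 0.79 (SE 0.53), Oosp1 at 0.58 (SE 0.50) and Zp2 at 0.09 (SE 0.49). Both KO libraries lay above both WT libraries for Zp1 and Zp3, and the genotypes overlapped for the other 3 genes. The share of all genes separated in this way at GVBD was not computed.

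At MII all zona genes were higher in both KO libraries than in both WT libraries, by a mean log2 difference of 1.48 for Zp1 (SE 0.74), 1.90 for Zp2 (SE 0.66) and 1.91 for Zp3 (SE 0.71). None of the 5 passed the test after adjustment, beside 0.803% of genes called. Unadjusted p-values were 0.0461, 0.00416 and 0.00705, and adjusted ones 0.656, 0.198 and 0.263. Zp2 and Zp3 exceeded the difference of 92.7% and 92.8% of all 17566 genes tested, whose median was 0.30. Astl was at 0.96 (SE 0.71), without overlap of the libraries, and Oosp1 at 0.24 (SE 0.50), with overlap. How many of all genes had KO and WT libraries apart at MII was not computed, so the separation alone does not mark these genes. With the spread estimated over all 12 libraries, Zp3 reached an adjusted p of 0.0499 and Zp2 0.0525, and DESeq2 called 0 of the 5. Averaged over the stages, edgeR also called 0 of the 5, beside 1.26% of genes. Zp1 (0.96, SE 0.32), Zp3 (0.88, SE 0.33) and Astl (0.76, SE 0.25) had unadjusted p-values under 0.05 there, and adjusted ones of 0.136, 0.178 and 0.135.

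Whether the change from GV to MII differed between the genotypes was tested by the interaction of stage and genotype. The KO change minus the WT change was 2.08 for Zp2 (SE 0.67), 1.92 for Zp3 (SE 0.69) and 1.46 for Zp1 (SE 0.69), against 0.42 for Astl (SE 0.63) and −0.23 for Oosp1 (SE 0.50). With edgeR 0 of the 5 were called, as were 0 of all 20807 genes (0%), while 1197 genes had an unadjusted p under 0.05, among them Zp2 (0.00946, adjusted 0.572) and Zp3 (0.0167, adjusted 0.66). DESeq2 called 0 of the 5. The value of Zp2 was close to this under TMM scaling, at 2.15, where its adjusted p was 0.0347 and it was called. A difference between the genotypes in the loss of zona RNA was thus present in the group means and did not pass the test as designed.

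Within a library, the proportions of the transcripts to one another do not depend on spike-ins. Zp1, Zp2 and Zp3 reached 2781 and 2923 CPM in WT GV oocytes, 2487 and 2959 in WT GVBD oocytes, and 995 and 787 in WT MII oocytes. In KO their CPM was 2177 and 2351 before breakdown, 3280 and 2493 after it, and 3019 and 2309 in the MII samples. The WT MII libraries thus stood alone, and the KO MII libraries lay within the range of the earlier stages. Shares of the zona genes were taken from counts per kilobase. On that measure Zp1 took 7.58% and 8.96% at GV and 16.5% and 17.4% at MII in WT. The share of Zp2 in WT was 46.2% and 52.2% before breakdown, 64.6% and 61.0% after it and 44.7% and 42.6% in the MII libraries. In KO the share of Zp1 was 8.47% and 9.45% at GV and 12.8% and 14.4% at MII. The ratio of Oosp1 to Zp2, per kilobase, was 3.05 and 4.20 in WT GV, 38.7 and 52.9 in WT MII, 5.33 and 5.98 in KO GV, and 10.1 and 21.2 in KO MII. The KO MII ratios lay between those of the WT GV and WT MII libraries.

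**Figure D3:**
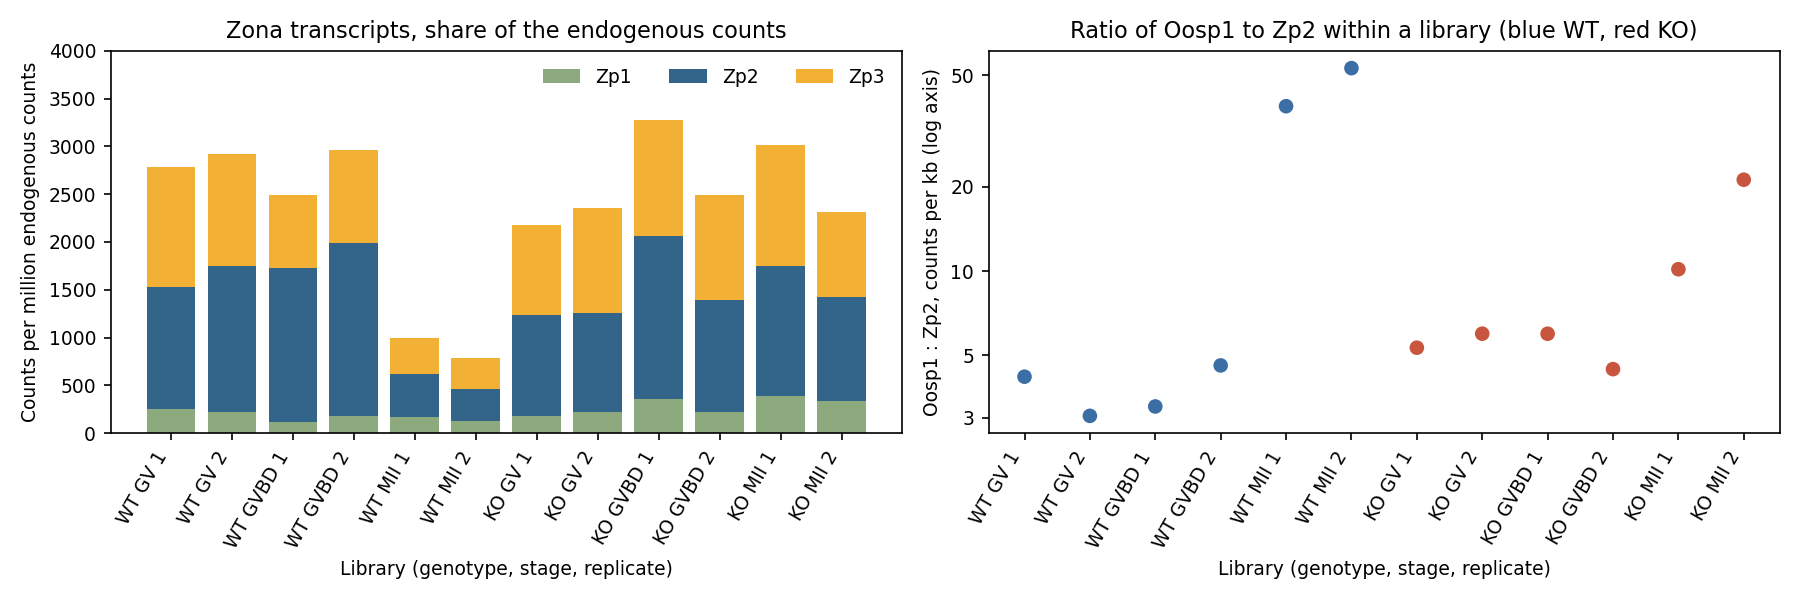
Left, the summed CPM of Zp1, Zp2 and Zp3 in each of the 12 libraries (stacked bars from 0). Segments split each bar by the genes' shares of counts per kilobase, so the height of a segment is not that gene's CPM. Right, the ratio of Oosp1 to Zp2 counts per kilobase on a log axis (blue WT, red KO). The WT MII libraries have the smallest bars (995 and 787) and the highest ratios (38.7 and 52.9).

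The order of the 6 groups by mean level shows where neighbours were separate. For Zp2 it ran from KO GVBD (78500) through WT GVBD, WT GV, KO GV and KO MII (44248) to WT MII (11864), and neither WT GV and KO GV nor KO MII and WT MII overlapped. For Zp3 it ran from KO GVBD (37208) to WT MII (6266), with KO GV (36027) apart from KO MII (23485) and WT GVBD (22151) apart from WT MII. Zp1 split between WT GV (10498) and WT GVBD (5476), with the mean of the KO group of every stage above that gap. KO MII replicate 2, at 7831, lay below both WT GV libraries. For Oosp1 the break was between KO GV (153561) and WT GVBD (124740), and for Astl every neighbouring pair overlapped. How often neighbouring groups were separate over all genes was not computed.

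Other genes of the egg coat were read from a list of 30, of which 29 were tested and Sohlh1, an early oocyte factor, was too low. In WT, 8 of the 29 were called lower at MII than at GV and 0 higher, with a median log2 change of −0.91 over the list beside −1.06 over all genes. Over all genes 30.5% were called lower in that comparison. In KO 0 of the 29 were called, beside 3.28% of all genes lower, with a median of −0.96 beside −1.17. From GVBD to MII, 4 of the 29 were called lower in WT, beside 27.1% of all genes, and 0 in KO, beside 7.12%. In the other comparisons, including the interaction, edgeR called 0 of the 29.

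By role, 2 of the 3 tested transcription factors, 2 of 5 relatives of the ZP and OOSP families, 0 of 4 proprotein convertases, 1 of 5 glycosylation and folding genes, 2 of 11 cortical granule genes and the ovastacin inhibitor were called lower in WT. Zp4-ps, the transcribed mouse pseudogene of the fourth zona gene (chr13:11522052-11528852, overlapping a gene on the other strand by 44 bases), gave 5790 and 4970 ERCC-scaled counts in WT GV, 873 and 579 in WT MII, 7359 and 6635 in KO GV, and 5789 and 3281 in KO MII. It changed by −2.89 in WT (SE 0.51, adjusted p = 2.42e-07) and was at −0.63 in KO (SE 0.56), values near those of Zp2. The interaction was 2.26 (SE 0.65, unadjusted p = 0.0049, adjusted p = 0.513). Oosp2 (−1.67, adjusted p = 0.000725) fell in WT, unlike its neighbour Oosp1, and Oosp3 was at 0.32 (SE 0.41).

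Among the factors that drive zona transcription, Lhx8 fell in WT by 2.28 on the log2 scale (adjusted p = 0.000127) and Nobox was at −0.91 (adjusted p = 0.125). Figla, named after its values were seen, gave 1489 and 1438 ERCC-scaled counts in WT GV and 51.0 and 29.4 in WT MII, a change of −5.19 (SE 0.61, adjusted p = 1.76e-15). In KO it gave 3017 and 2592 at GV and 812 and 115 at MII (−2.60, SE 0.88, adjusted p = 0.109). The KO MII libraries were both above the WT MII ones for Figla, by 3.53 (SE 1.03, adjusted p = 0.0668), and differed greatly from each other. Fetub, the liver protein fetuin-B that restrains ovastacin, was at 2647 and 2318 in WT GV and 1381 and 699 in WT MII (−1.26, adjusted p = 0.038). Calr (−1.25, adjusted p = 0.0372), a chaperone of glycoprotein folding, was called as well, while its partner Canx (−1.15, adjusted p = 0.0514), Nsf (0.10) and Rab11a (−0.88), which act in vesicle traffic, were not.

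**Figure D4:**
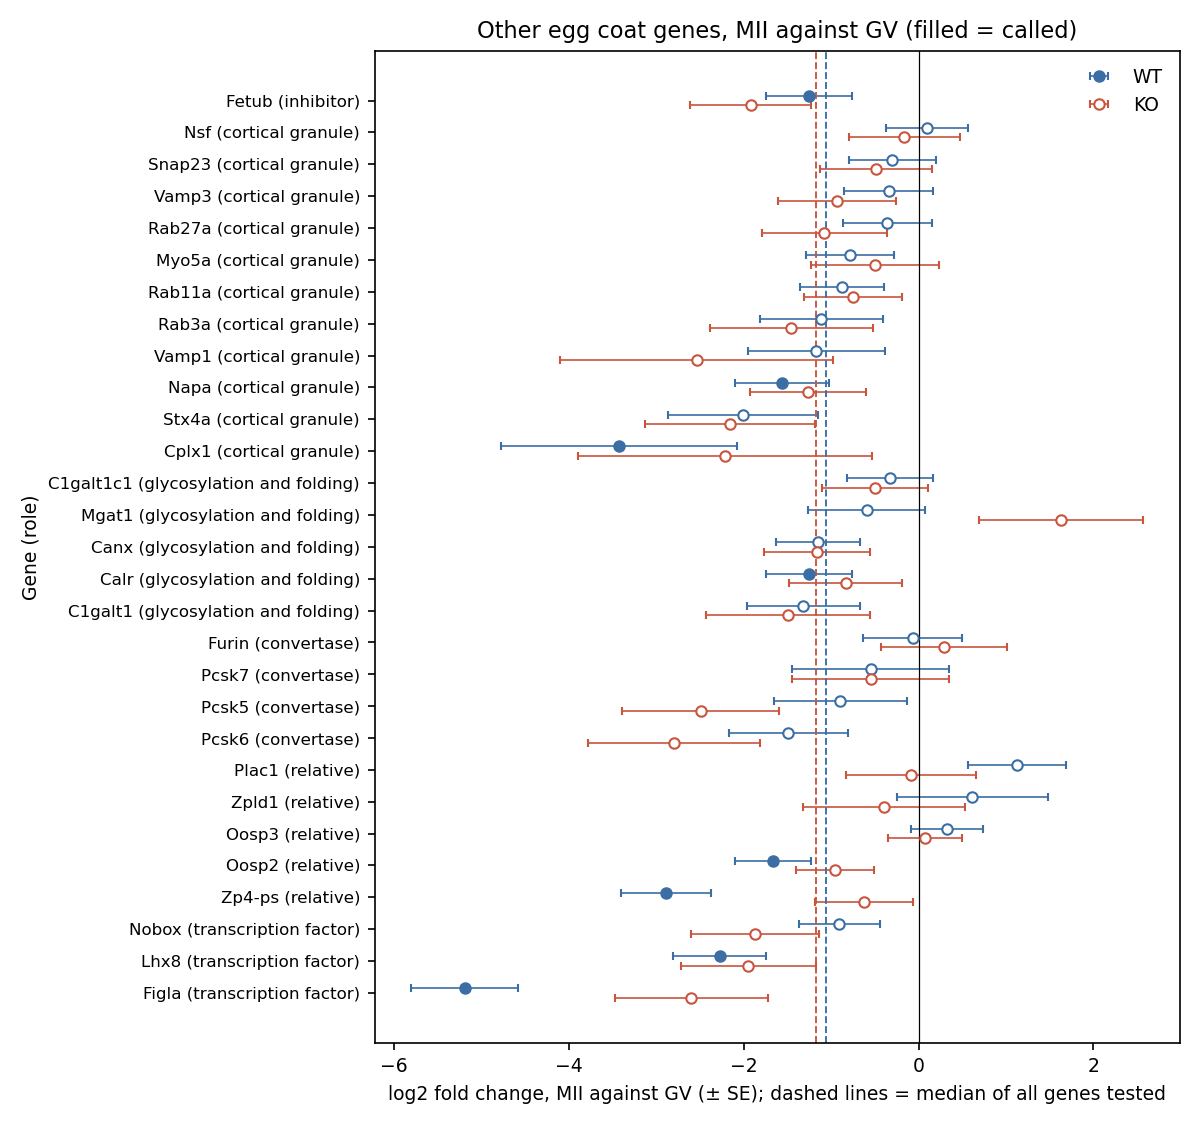
log2 fold changes of MII against GV with standard errors for the 29 other egg coat genes tested, ordered by role, in WT (blue) and KO (red), filled where called, with dashed lines at the medians of all genes (−1.06 in WT, −1.17 in KO). The 8 filled WT points include Figla at −5.19 and Zp4-ps at −2.89, and no KO point is filled.

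As a description across the 12 libraries, which share stage and library, Zp2 followed Zp4-ps (Pearson r = 0.94) and Zp3 (r = 0.86) in log2 TMM-scaled CPM. Zp1 followed Astl (r = 0.67) and Zp3 (r = 0.65) about equally, and Oosp1 followed Astl (r = 0.87) and not Zp2 (r = −0.40). Among 10836 genes with a mean count of at least 50, the profiles most like each gene were those of Map1lc3a (r = 0.95) and Pfdn5 for Zp1, Rpl7 (r = 0.95) and Elobl for Zp2, Commd4 (r = 0.96) and Magi1 for Zp3, Tcl1b3 (r = 0.99) and Rfpl4 for Oosp1, and Pramef17 (r = 0.98) and Thoc3 for Astl. No gene appeared in the top 3 of more than 1 of the 5.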

How the data were processed

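The deposited table held raw read counts for each gene in each sample, without normalization, and 92 ERCC sequences. Per the study's methods, reads from ERCC-spiked pools of zona-free oocytes, reverse transcribed from poly(A), were trimmed, aligned to GRCm38/mm10 plus ERCC and kept where unique. The submitters' processing notes name cutadapt 1.9, HISAT2 2.0.4 and StringTie 1.3.4d. The annotation release, strand setting and counting step are not given in the sources used here. The extraction protocol with the samples describes another preparation than the methods do. Poly(A) priming measures tail changes together with RNA amounts, and no molecular identifiers were used.

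Symbols were matched through Ensembl identifiers (52073 genes). Library sizes were set in proportion to ERCC totals, filterByExpr (minimum count 10) was applied, and edgeR 4.0.16 (glmQLFit, glmQLFTest, two-sided, R 4.3.3) was fitted on all genes for 11 comparisons, each on the groups compared, with Benjamini-Hochberg adjustment and a threshold of 0.05 and an absolute log2 fold change of 1, as in the study. The fits were tested on simulated counts. Alternatives were TMM scaling, no filter, DESeq2 1.42.0, a replicate block, all 12 libraries in one model, and each library left out. Likeness was Pearson's r of log2(TMM-scaled CPM + 0.5). Transcript lengths came from GENCODE M21. Named genes were the 5 members, Alkbh5, and up to 10 egg coat genes with the highest mean counts, and outside that rule Figla, Sohlh1 and the granulosa markers, named after their values were seen. The members and lists were chosen with earlier results of these data known.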

Additional observations from a re-analysis of the deposited data

Results flagged for a closer look

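Zp2 had both KO libraries below both WT libraries at GV and above both at MII. The closest libraries at GV were nearly level, at 66539 ERCC-scaled counts in KO and 67393 in WT. How many of all genes were separated in opposite directions at 2 stages was not computed. The genotype difference at MII minus that at GV was 2.08 on the log2 scale. The edgeR test of this difference gave an adjusted p of 0.572 (unadjusted p = 0.00946), and the separation at GV was small, at −0.18 (SE 0.16, adjusted p = 0.604).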

How the results depend on the processing

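DESeq2 and the replicate block left every count of members called as it was, and the other settings changed some of them. For MII against GV in WT, TMM scaling gave 3 (without Zp1) and no filter on low counts gave 3 (without Oosp1), and for MII against GVBD in WT TMM scaling gave 2, with Oosp1 in place of Zp3. The cause of the changes was not tested. With all 12 libraries in one model, MII against GV in WT gave 2 (Zp2 and Zp3) and KO against WT at MII gave 1 (Zp3), and TMM scaling gave 1 (Zp2) for the interaction. TMM scaling moved the median of all genes, for MII against GVBD in KO from −0.88 to −0.03, and the largest move of a member relative to the median over the 11 comparisons was 0.26 (Oosp1, MII against GVBD in KO). It turned Zp1 in KO against WT at GV to −0.32, Zp2 at GVBD to −0.22, Zp1 and Astl in MII against GVBD in WT to 0.41 and 0.73, Zp1, Zp2, Zp3 and Astl in MII against GVBD in KO to 0.62, 0.074, 0.19 and 0.90, Astl in MII against GV in WT to 0.88, and Zp2 and Zp3 in KO to 0.56 and 0.39. Leaving out 1 library at a time, where a lone library is assumed to vary like the other group, gave 0 to 2 members for MII against GVBD in WT, 1 to 3 for MII against GV in WT, 0 to 2 in KO and 0 to 1 for the interaction (Zp3, without KO MII replicate 2). Values of members near 0 changed sign: at GV, Zp1 ranged from −0.11 to 0.17 and Zp3 from −0.11 to 0.092. At GVBD, Zp2 ranged from −0.36 to 0.43 and Oosp1 from −0.14 to 1.06, and at MII Oosp1 from −0.017 to 0.56. From GV to GVBD in WT, Zp2 ranged from −0.14 to 0.25 and Astl from −0.13 to 0.44, and in KO Zp1 from −0.16 to 0.80, Zp2 from −0.11 to 0.67, Zp3 from −0.17 to 0.24, Oosp1 from −0.44 to 0.76 and Astl from −0.19 to 0.87, where KO GVBD replicate 1 decided the sign of all 5. From GVBD to MII, Astl ranged from −0.58 to 0.082 in WT, and in KO Zp1 from −0.84 to 0.26 and Astl from −0.52 to 0.57. From GV to MII, Astl ranged from −0.40 to 0.24 in WT, and in KO Zp1 from −0.45 to 0.48 and Astl from −0.087 to 0.73. In the interaction Oosp1 ranged from −0.49 to 0.092 and Astl from −0.043 to 0.78.

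A replicate block left 4 members called for MII against GV in WT, 2 for MII against GVBD in WT and 0 elsewhere. Same-numbered libraries had deviations correlated between −0.22 and 0.22, and the labels tie no number to a shared collection, so the numbers were not taken as pairs. Where that correlation was under −0.1, the crossed numbers, chosen after seeing the data, gave 0 members and 218 genes at GV, 0 and 0 at MII, and 0 and 204 for MII against GVBD in KO. Over all genes the count at GV was 19, against 0 with a replicate block and 666 with DESeq2.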
